A study of Mus musculus with 12 samples.

Results

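The AP-1 transcription factors were described here across mouse retinas injected with NMDA or PBS. Members were the 10 genes *Fos*, *Fosb*, *Fosl1*, *Fosl2*, *Jun*, *Junb*, *Jund*, *Atf3*, *Batf* and *Maff*, found by an exact match of their symbols in a table of 55487 genes. All 10 were among the 16471 genes tested, that is, genes with a mean above 1 FPKM (fragment counts scaled to transcript length and library size) in at least 1 group. Poly(A) RNA was sequenced from 12 libraries in 6 groups of 2. By the study's methods, a library was made from a pool of more than 3 retinas. The study describes its injected wild-type and sh*Pax6* mice as 2 months of age, and no age is given for the JNK3 KO mice in the sources used here. WT retinas came from C57BL/6J mice. JNK3 KO retinas came from *Jnk3*-/- mice, which lack the kinase in every tissue. sh*Pax6* retinas came from wild-type mice whose eyes had received the AAV2.7m8 vector pU6-sh*Pax6*-GFP, in which the U6 promoter drives a short hairpin against *Pax6*. No library of a retina with the control vector pU6-shScramble-GFP was analysed here, so infection and knockdown cannot be told apart. WT, sh*Pax6* and JNK3 KO are called genotypes below, although sh*Pax6* mice are wild-type mice given a vector. Each genotype was injected into the vitreous with 1 μL of PBS or with 1 μL of 40 mM NMDA, which is 40 nmol, and collected the day after. NMDA is an agonist of glutamate receptors that kills retinal ganglion cells (RGCs) and amacrine cells by excitotoxicity.

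AP-1 is a dimer of basic leucine zipper proteins. FOS proteins (FOS, FOSB, FOSL1, FOSL2) pair poorly with each other and need a JUN partner (JUN, JUNB, JUND), whereas JUN proteins also pair among themselves and with ATF3 or BATF. The dimers bind the sequence TGANTCA, or the related cyclic AMP response element (CRE) when an ATF protein takes part. *Fos*, *Fosb*, *Jun*, *Junb* and *Atf3* are immediate early genes that a stimulus switches on within minutes, while *Fosl1* and *Fosl2* follow later and are themselves AP-1 targets. JNK kinases phosphorylate the activation domain of JUN. In injured neurons JUN and ATF3 are known markers of axon and excitotoxic damage, and in glia and leukocytes AP-1 takes part in inflammatory gene expression. The comparisons below ask how each member responded to NMDA in each genotype and whether the responses differed.

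On FPKM as deposited, *Fos* and *Jun* rose in sh*Pax6* retinas alone, while *Junb* and *Atf3* rose in both WT and sh*Pax6* retinas. These members are shown by the 250 bases before their start in RefSeq (build GRCm38.p6, written 5′ to 3′ on the gene's strand). Capitals mark the CRE core TGACG and the CRE-like octamer TGACNTCA, searched on both strands, so that a core on the other strand reads CGTCA.
Fos promoter, chr12:85473640-85473889, plus strand: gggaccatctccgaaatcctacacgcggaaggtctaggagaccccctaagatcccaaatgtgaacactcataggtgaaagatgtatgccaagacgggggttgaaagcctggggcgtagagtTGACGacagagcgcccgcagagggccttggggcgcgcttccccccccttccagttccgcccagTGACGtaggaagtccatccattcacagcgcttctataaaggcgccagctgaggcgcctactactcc
Jun promoter, chr4:95052223-95052472, minus strand: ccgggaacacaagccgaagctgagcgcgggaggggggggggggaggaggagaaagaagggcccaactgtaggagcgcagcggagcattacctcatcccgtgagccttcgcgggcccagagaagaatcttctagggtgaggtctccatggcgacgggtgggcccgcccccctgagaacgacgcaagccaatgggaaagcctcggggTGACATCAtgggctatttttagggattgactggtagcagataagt
Junb promoter, chr8:84978749-84978998, minus strand: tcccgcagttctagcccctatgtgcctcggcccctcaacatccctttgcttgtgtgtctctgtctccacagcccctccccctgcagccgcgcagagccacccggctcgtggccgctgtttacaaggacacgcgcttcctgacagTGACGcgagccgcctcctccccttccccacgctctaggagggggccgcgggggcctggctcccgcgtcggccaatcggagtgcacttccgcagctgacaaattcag
Atf3 promoter, chr1:191183334-191183583, minus strand: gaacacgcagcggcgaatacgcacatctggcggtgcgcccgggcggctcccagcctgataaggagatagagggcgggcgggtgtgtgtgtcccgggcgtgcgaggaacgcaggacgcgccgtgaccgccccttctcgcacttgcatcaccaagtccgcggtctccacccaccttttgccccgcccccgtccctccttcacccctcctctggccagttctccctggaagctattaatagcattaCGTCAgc
RefSeq held windows for 9 of the 10 members, 11 windows in all because *Maff* has several starts. The core TGACG lay in 7 of the 11 windows, of 6 genes, against 17.8% of all 32851 windows of the same length. In *Fos* it lay 66 to 62 bases before the start and again at 129 to 125. In *Junb* it lay at 106 to 102 and in *Atf3* at 7 to 3 bases before the start. The *Atf3* window lies inside the annotated span of the gene, whose 5′ end is at 191218039, and the bases before that end were not searched. The octamer lay in 3 of the 11 windows, those of *Jun* at 45 to 38 and of *Maff* at 2 starts, against 7.49% of all windows. An octamer with G in the open position also holds the core, as at 29 to 22 bases before a *Maff* start. The AP-1 sequence TGANTCA was in 0 of the 11 windows and in 6.75% of all. The CArG box, the sequence of serum response factor, was in 0 of the 11 and in 1.47% of all. These are matches of letters within 250 bases and say nothing of binding.

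The labels were checked first. Levels of *Pax6* were 173 and 177 FPKM with PBS in WT retinas, against 94.6 and 92.8 FPKM with PBS in sh*Pax6* retinas. With NMDA they were 55.4 and 53.8 FPKM in WT and 67.5 and 58.7 FPKM in sh*Pax6*, so a lower level was seen under PBS but not under NMDA. *Mapk10*, which encodes JNK3, had 42.8 and 50.7 FPKM with PBS in WT and 9.47 and 8.75 FPKM with PBS in JNK3 KO. With NMDA it had 8.98 and 6.00 FPKM in WT and 6.65 and 13.8 FPKM in JNK3 KO, so WT and JNK3 KO too were apart under PBS alone. In sh*Pax6* retinas *Mapk10* had 20.9 and 21.3 FPKM with PBS, also below WT, and 16.2 and 8.85 FPKM with NMDA. The WT NMDA libraries stood apart. Their FPKM summed to 805627 and 820180, against 541210 to 576922 in the other 10 libraries, and their response followed gene length. The median gene had a log2 response in WT of 1.03 if its spliced transcript was shorter than 1 kb. This was 0.52 between 1 and 2 kb, -0.32 between 2 and 4 kb and -1.17 for longer ones, while in sh*Pax6* it ran from 0.18 to -0.07 and in JNK3 KO from -0.11 to 0.16. *Fosl2* is the only member over 4 kb, *Jun* and *Fosb* lie between 2 and 4 kb, *Batf* is under 1 kb and the other 6 members lie between 1 and 2 kb. The median response of all tested genes was -0.09 in WT on the deposited FPKM and -0.66 after each library was rescaled to TPM. Member values on TPM, after quantile normalization, or after the trend on length was taken out of each library (the length correction) therefore stand beside most results that include WT. TPM moves all genes of a library alike, so most TPM values are also given relative to the median of all genes.

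Markers of cell types moved with the groups. Rod markers, the check of the tissue, were high in every library, with 6 of 6 genes tested and sums between 20060 and 34540 FPKM. The 10 RGC markers, all tested, summed to 540 to 561 FPKM in WT PBS, 299 to 319 in WT NMDA, 159 to 161 in sh*Pax6* PBS, 39.3 to 46.7 in sh*Pax6* NMDA, 514 to 555 in JNK3 KO PBS and 125 to 128 in JNK3 KO NMDA. Of the neutrophil list 8 of 10 genes were tested, and its sum was 213 to 236 FPKM in WT PBS and 1953 to 1990 in WT NMDA. It was 5.20 to 6.09 FPKM, then 67.0 to 74.3 FPKM, for PBS and NMDA in sh*Pax6*, and 156 to 170, then 13.3 to 14.2 FPKM, in JNK3 KO. *Elane* was at 0 in both WT groups, and *Ly6g*, *Mpo*, *Elane* and *Ngp* were at 0 in both sh*Pax6* groups and in JNK3 KO NMDA. The 12 microglia and macrophage markers, all tested, summed to 68.9 to 73.6 FPKM in WT PBS and 129 to 139 in WT NMDA. They summed to 179 to 195, then 581 to 607 FPKM, in sh*Pax6* and to 77.7 to 82.5, then 74.8 to 79.3 FPKM, in JNK3 KO. The 8 Müller glia markers, all tested, summed to 823 to 824 FPKM in WT PBS, 718 to 744 in WT NMDA, 1707 to 1778 in sh*Pax6* PBS, 2580 to 2752 in sh*Pax6* NMDA, 895 to 929 in JNK3 KO PBS and 859 to 870 in JNK3 KO NMDA. The 10 gliosis genes, all tested, summed to 1969 to 2032 FPKM in WT PBS, 2675 to 2731 in WT NMDA, 1349 to 1400 in sh*Pax6* PBS, 3862 to 3901 in sh*Pax6* NMDA, 1702 to 1705 in JNK3 KO PBS and 1285 to 1317 in JNK3 KO NMDA. The 8 amacrine markers, all tested, summed to 271 to 277 FPKM, then 110 to 119 FPKM, for PBS and NMDA in WT, to 211 to 224, then 91.2 to 92.4 FPKM, in sh*Pax6*, and to 240 to 249, then 203 to 208 FPKM, in JNK3 KO. RPE markers, with 3 of 5 genes tested, summed to 3.52 to 6.17 FPKM in sh*Pax6* NMDA, where *Fos* and *Jun* were high, and to 34.9 to 68.8 FPKM in the other groups. Lens markers, with 6 of 8 tested, summed to 277 to 285 FPKM in WT NMDA and 78.4 to 170 FPKM elsewhere. The 5 erythrocyte markers, all tested, summed to 613 to 650 FPKM in WT NMDA and 28.7 to 126 FPKM elsewhere. The 6 endothelial markers, all tested, summed to 29.2 to 32.5 FPKM in WT NMDA and 39.5 to 72.3 FPKM elsewhere, and of 5 corneal markers 1 was tested and the sum was 0.05 to 2.7 FPKM. Marker sums are on the deposited FPKM, neither rescaled nor corrected for length. Those of WT NMDA, with larger totals over all genes, are therefore not on the same scale as those of other groups. The part of these cells in the AP-1 results was not tested. In such bulk samples a change in the number of cells of a type and a change in RNA per cell cannot be told apart.

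After NMDA, the members that rose were *Fosl1*, *Junb*, *Jund*, *Atf3* and *Maff* in WT retinas, 9 of 10 in sh*Pax6* retinas and *Fosl1* alone in JNK3 KO retinas. In WT retinas 5 members rose and 1 fell at an adjusted p under 0.05 (limma's test with Benjamini-Hochberg adjustment over all genes tested), where 26.0% of all tested genes rose and 33.8% fell. The median log2 response of the members was 1.02. On TPM 5 rose and 4 fell, as *Fos*, *Fosb* and *Jun* joined *Fosl2*. The median of all tested genes was then -0.66. Relative to it *Fos*, *Fosb* and *Jun* were at -0.03, -0.01 and 0.08, and *Fosl2* at -0.94. The shares of all genes given here are those on the deposited FPKM. After the length correction *Jun* joined the members that rose in WT and *Fosl2* no longer fell. In sh*Pax6* retinas 9 rose and 0 fell, where 19.1% of all tested genes rose and 11.0% fell, and the members' median was 1.38. With the spread taken from the sh*Pax6* libraries alone, 5 rose, as the calls of *Fosb*, *Fosl1*, *Fosl2* and *Jund* were lost. In JNK3 KO retinas 1 rose and 0 fell, where 4.33% of all tested genes rose and 6.10% fell. Without adjustment 3 of the 10 members had a limma p under 0.05 in JNK3 KO, as did 3986 of the 16471 tested genes. The members' median there was 0.09. The medians of all tested genes were -0.09, 0.10 and -0.01 in the 3 genotypes.

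**Figure D1:**
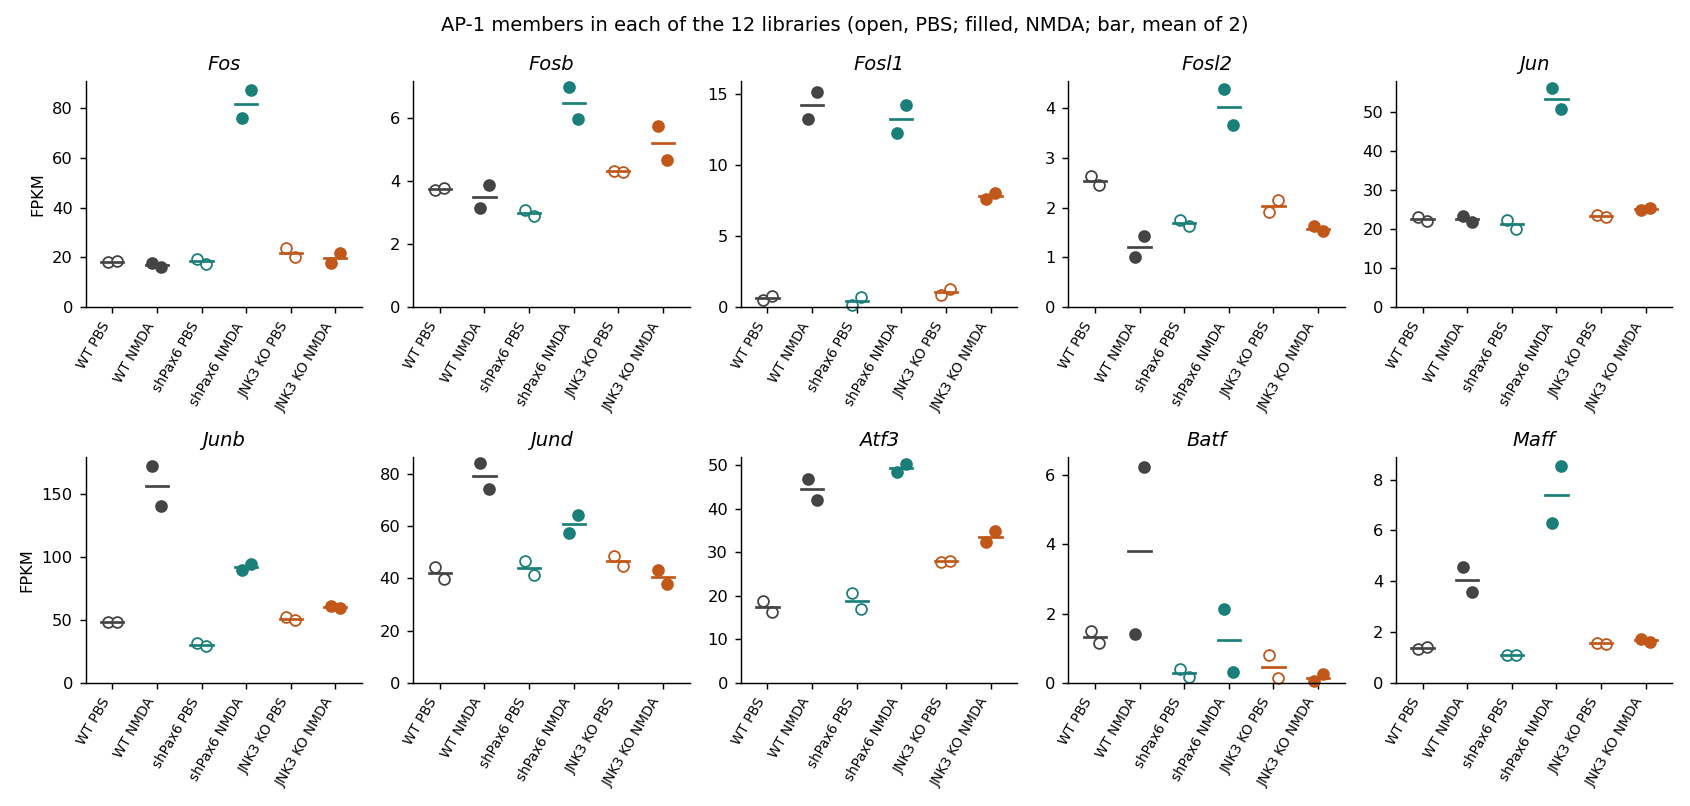
Level of each AP-1 member in FPKM (vertical axis, linear, from 0) in the 6 groups; each point is a library, open for PBS and filled for NMDA, and the bar is the mean of the 2 libraries. *Fos* and *Jun* were high only in the sh*Pax6* NMDA libraries, at 75.8 and 87.2 and at 56.2 and 50.8 FPKM, while *Fosl1* rose in all 3 genotypes.

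*Fos* (ENSMUSG00000021250, chromosome 12, 85473890 to 85477273, plus strand) encodes the founding FOS protein. Its level in WT was 18.1 and 18.5 FPKM after PBS, 17.6 and 16.2 FPKM after NMDA. In sh*Pax6* retinas the PBS libraries had 19.5 and 17.4 FPKM, and the NMDA libraries 75.8 and 87.2 FPKM. JNK3 KO retinas had 23.8 and 20.0 FPKM after PBS, 17.7 and 21.7 FPKM after NMDA. The sh*Pax6* NMDA libraries thus stood far above the other 10, which lay between 16.2 and 23.8 FPKM. Of the other groups only WT NMDA did not overlap its neighbour in the order of means, which was WT PBS. The log2 response in sh*Pax6* was 2.14 (95% interval 1.84 to 2.43, limma adjusted p = 5.83e-06). It was -0.12 in WT (-0.41 to 0.18) and -0.15 in JNK3 KO (-0.45 to 0.14). On TPM the WT value was -0.69 with a limma adjusted p of 0.000959, but relative to the median of all genes it was -0.03, against -0.02 on the deposited FPKM. The main coding transcript, of 2108 bases, held 70.4% to 100% of *Fos* in every library and rose by 2.28 in sh*Pax6* (limma adjusted p = 5.55e-05 over 49940 transcripts).

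*Fosb* (ENSMUSG00000003545, chromosome 7, 19302696 to 19310051, minus strand), which encodes an inducible FOS protein, was a low gene in these retinas. WT libraries had 3.72 and 3.76 FPKM after PBS, 3.14 and 3.86 FPKM after NMDA. Those of sh*Pax6* had 3.06 and 2.88 FPKM after PBS, 6.95 and 5.94 FPKM after NMDA, and those of JNK3 KO 4.31 and 4.28 FPKM, then 5.73 and 4.66 FPKM. *Fosb* rose in sh*Pax6* by 1.09 (0.68 to 1.49, limma adjusted p = 0.00184) and its 2 NMDA libraries were the highest of the 12. In WT its libraries overlapped and in JNK3 KO they did not, with log2 responses of -0.10 and 0.26 that did not pass the test. On TPM the WT value was -0.66 (limma adjusted p = 0.00999), or -0.01 relative to the median of all genes. After the length correction it was 0.48 (limma adjusted p = 0.0576). Its annotated transcripts shifted between libraries of the same group. The coding transcript of 3782 bases held 78.6% and 31.8% of the gene in WT PBS, and in sh*Pax6* PBS it was listed at 0 and at 60.6%. Another coding transcript, of 3523 bases, was listed at 0 in the WT PBS and all 4 sh*Pax6* libraries and at 1.85 and 0.52 FPKM in WT NMDA, a log2 response of 3.46 (limma adjusted p = 0.0145). RSEM divides reads over transcripts that share exons, so these levels are uncertain.

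*Fosl1* (ENSMUSG00000024912, chromosome 19, 5447547 to 5455946, plus strand), which encodes FRA-1, had the largest log2 response of the 10 members in each genotype. In WT it had 0.48 and 0.76 FPKM after PBS, 13.2 and 15.1 FPKM after NMDA. In sh*Pax6* it went from 0.14 and 0.74 to 12.2 and 14.2 FPKM, and in JNK3 KO from 0.89 and 1.31 to 7.60 and 8.0 FPKM. No NMDA library overlapped any PBS library, the JNK3 KO NMDA libraries lay below those of WT and sh*Pax6*, and the libraries of WT and sh*Pax6* NMDA overlapped each other. The log2 response was 4.33 in WT (3.20 to 5.46, limma adjusted p = 5.99e-05), 4.88 in sh*Pax6* (3.75 to 6.01, limma adjusted p = 0.000123) and 2.74 in JNK3 KO (1.61 to 3.87, limma adjusted p = 0.00975). With a pseudocount of 0.1 these values understate the change of a gene that is low under PBS. On TPM the WT value was 3.855 (limma adjusted p = 0.000211), or 4.51 relative to the median of all genes. After quantile normalization it was 4.755 and after the length correction 4.09. The JNK3 KO call was lost when 1 library was left out: the log2 response was 2.78 without JNK3 KO NMDA replicate 1, 2.7 without JNK3 KO NMDA replicate 2 and 2.49 without JNK3 KO PBS replicate 1, with limma adjusted p of 0.0771, 0.0812 and 0.0881.

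*Fosl2* (ENSMUSG00000029135, chromosome 5, 32135801 to 32157842, plus strand), which encodes FRA-2, was the member that moved in opposite directions. In WT it had 2.63 and 2.45 FPKM after PBS, 1.01 and 1.42 FPKM after NMDA. The sh*Pax6* libraries had 1.74 and 1.62 FPKM, then 4.37 and 3.66 FPKM, and the JNK3 KO libraries 1.91 and 2.16 FPKM, then 1.62 and 1.53 FPKM. WT NMDA was the lowest and sh*Pax6* NMDA the highest of the 6 groups, neither overlapping its neighbour. It fell by 1.02 on the log2 scale in WT (-1.57 to -0.48, limma adjusted p = 0.00486), but after the length correction the WT value turned to 0.29 (limma adjusted p = 0.345). In sh*Pax6* it rose by 1.20 (0.66 to 1.75, limma adjusted p = 0.00513), and by 1.29 after the length correction. In JNK3 KO the value was -0.35 (-0.89 to 0.19). The 6446 bases of its spliced length make *Fosl2* the longest member, in the range where the median gene fell by 1.17 in WT.

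*Jun* (ENSMUSG00000052684, chromosome 4, 95049034 to 95052222, minus strand) encodes the JUN protein that JNK phosphorylates, and has a single annotated transcript. Its level in WT was 23.1 and 22.1 FPKM after PBS, 23.3 and 21.8 FPKM after NMDA. In sh*Pax6* it was 22.5 and 20.0 FPKM, then 56.2 and 50.8 FPKM, and in JNK3 KO 23.8 and 23.2 FPKM, then 25.01 and 25.4 FPKM. The sh*Pax6* NMDA libraries stood above the other 10, which lay between 20.0 and 25.4 FPKM. Its log2 response was 1.33 in sh*Pax6* (1.13 to 1.52, limma adjusted p = 8.23e-06), -0.0023 in WT (-0.20 to 0.19) and 0.10 in JNK3 KO (-0.10 to 0.29). The WT value depended on the scaling. It was -0.57 on TPM (limma adjusted p = 0.000304), or 0.08 relative to the median of all genes, and 0.49 after the length correction (limma adjusted p = 0.00133).

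*Junb* (ENSMUSG00000052837, chromosome 8, 84974484 to 84978718, minus strand), whose protein often restrains JUN, was the most abundant AP-1 member under NMDA in all 3 genotypes on the per-length scale of FPKM. Its level in WT was 48.1 and 48.3 FPKM after PBS, 173 and 141 FPKM after NMDA. In sh*Pax6* it was 31.6 and 29.0 FPKM, then 89.7 and 94.5 FPKM, and in JNK3 KO 52.1 and 50.2 FPKM, then 61.4 and 59.4 FPKM. No group overlapped its neighbour in the order of means, and the JNK3 KO NMDA libraries lay just above the JNK3 KO PBS libraries. The log2 response was 1.69 in WT (1.48 to 1.90, limma adjusted p = 5.73e-07), 1.603 in sh*Pax6* (1.39 to 1.81, limma adjusted p = 4.35e-06) and 0.24 in JNK3 KO (0.03 to 0.45, limma adjusted p = 0.146). On TPM the WT value was 1.12 (limma adjusted p = 6.37e-06), or 1.78 relative to the median of all genes. After quantile normalization it was 1.07 and after the length correction 1.42. The JNK3 KO value passed without WT NMDA replicate 1 or replicate 2, at an unmoved 0.24, with limma adjusted p of 0.048 and 0.0474.

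*Jund* (ENSMUSG00000071076, chromosome 8, 70698949 to 70700616, plus strand) encodes the JUN protein that resting cells usually hold most of, and its annotation also has 1 transcript. WT libraries had 44.5 and 39.7 FPKM after PBS, 84.1 and 73.9 FPKM after NMDA. The sh*Pax6* libraries had 46.4 and 41.2 FPKM, then 57.3 and 64.1 FPKM, and the JNK3 KO libraries 48.3 and 44.6 FPKM, then 43.1 and 37.9 FPKM. On the deposited FPKM, where the WT NMDA libraries have larger totals, these were the highest. The sh*Pax6* NMDA libraries came next without overlap, while the other 4 groups each overlapped their neighbour. The log2 response was 0.91 in WT (0.66 to 1.15, limma adjusted p = 7.61e-05), 0.47 in sh*Pax6* (0.22 to 0.72, limma adjusted p = 0.0104) and -0.20 in JNK3 KO (-0.45 to 0.05). On TPM the WT value was 0.33 (limma adjusted p = 0.0256), or 0.99 relative to the median of all genes. After the length correction the value was 0.54 in WT (limma adjusted p = 0.00264) and 0.27 in sh*Pax6* (limma adjusted p = 0.0867). The sh*Pax6* call was also lost at 0.39 without sh*Pax6* NMDA replicate 2 and at 0.38 without sh*Pax6* PBS replicate 2.

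*Atf3* (ENSMUSG00000026628, chromosome 1, 191170296 to 191218039, minus strand), a stress factor that represses as a homodimer and activates with JUN, had 18.7 and 16.2 FPKM after PBS in WT, 46.9 and 42.0 FPKM after NMDA. In sh*Pax6* it had 20.6 and 16.9 FPKM, then 48.4 and 50.2 FPKM, and in JNK3 KO 27.7 and 28.1 FPKM, then 32.3 and 34.8 FPKM. The NMDA libraries lay above the PBS libraries in each genotype. The log2 response was 1.34 in WT (1.09 to 1.597, limma adjusted p = 7.66e-06) and 1.40 in sh*Pax6* (1.15 to 1.65, limma adjusted p = 2.86e-05). In JNK3 KO it was 0.27 (0.01 to 0.52, limma adjusted p = 0.185), from a PBS level above those of the other genotypes. The WT value of *Atf3* was 0.77 on TPM (limma adjusted p = 0.000269), or 1.43 relative to the median of all genes. After quantile normalization it was 1.15 and after the length correction 1.17. Its main coding transcript held 82.8% to 100% of the gene.

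*Maff* (ENSMUSG00000042622, chromosome 15, 79346621 to 79359076, plus strand) encodes a small MAF protein, which lacks an activation domain of its own. Its level in WT was 1.35 and 1.43 FPKM after PBS, 4.56 and 3.58 FPKM after NMDA. In sh*Pax6* it was 1.10 and 1.08 FPKM, then 6.28 and 8.53 FPKM, and in JNK3 KO 1.58 and 1.55 FPKM, then 1.73 and 1.61 FPKM. The sh*Pax6* NMDA libraries were the highest, those of WT NMDA next, and the other 8 lay between 1.08 and 1.73 FPKM. The log2 response was 1.48 in WT (0.95 to 2.00, limma adjusted p = 0.000446), 2.64 in sh*Pax6* (2.12 to 3.17, limma adjusted p = 4.86e-05) and 0.09 in JNK3 KO (-0.44 to 0.61). On TPM the WT value was 0.94 (limma adjusted p = 0.00713), or 1.595 relative to the median of all genes. After quantile normalization it was 1.905 and after the length correction 1.28. *Batf* (ENSMUSG00000034266, chromosome 12, 85686669 to 85709087, plus strand), a factor of lymphocytes and other leukocytes, varied widely between libraries of a group. WT libraries had 1.51 and 1.14 FPKM after PBS, 1.41 and 6.21 FPKM after NMDA. The sh*Pax6* libraries had 0.40 and 0.18 FPKM, then 2.13 and 0.32 FPKM, and the JNK3 KO libraries 0.80 and 0.14 FPKM, then 0.05 and 0.25 FPKM. Each group overlapped its neighbour in the order of means and the intervals were wide, as in WT from -1.15 to 3.40 around 1.13. Lymphocyte markers, with 5 of 9 genes tested, summed to 11.1 to 12.6 FPKM in sh*Pax6* NMDA and to 1.19 to 3.15 FPKM in the other groups, and *Ms4a1* was at 0 in each group but sh*Pax6* NMDA. Leaving out WT NMDA replicate 2 or replicate 1 put the WT value of *Batf* at 0.10 and 2.16.

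**Figure D2:**
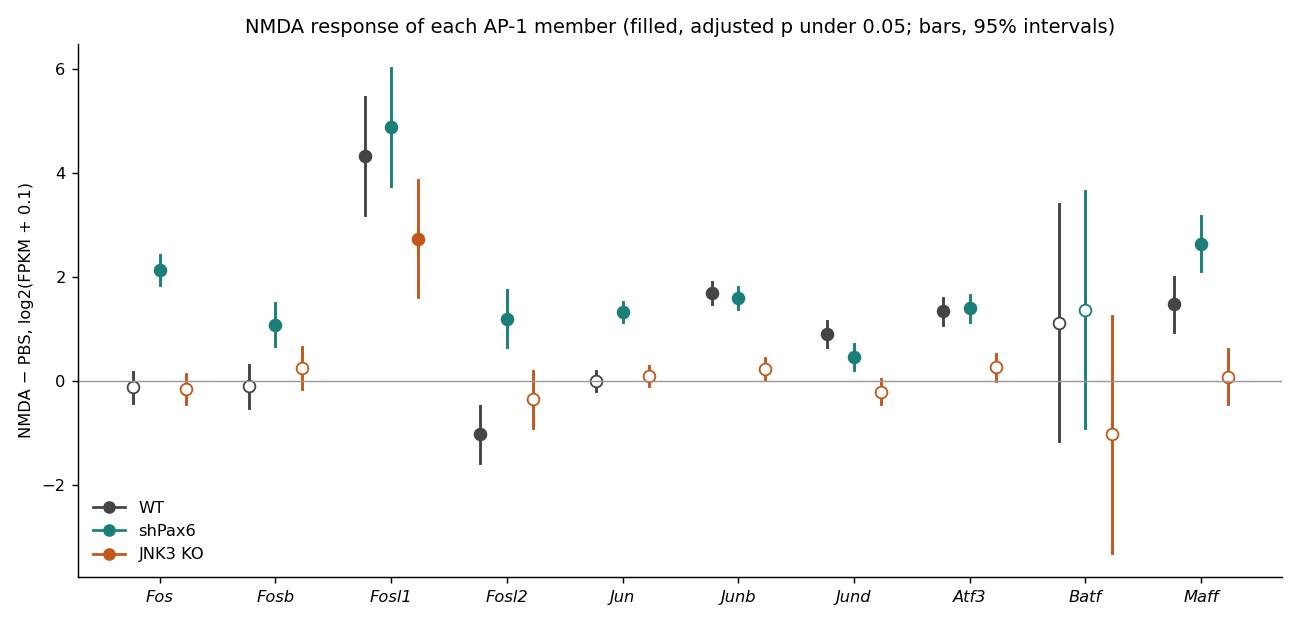
Log2 response to NMDA (vertical axis, NMDA minus PBS of log2(FPKM + 0.1)) of each AP-1 member in WT, sh*Pax6* and JNK3 KO retinas; points are estimates, filled at an adjusted p under 0.05, and bars are 95% intervals of limma's fit. *Fos*, *Fosb* and *Jun* are filled in sh*Pax6* alone, and *Fosl1* in all 3 genotypes.

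On the deposited FPKM, the make-up of both subfamilies differed between PBS and NMDA libraries. The 4 FOS genes together summed to 24.9 and 25.5 FPKM in WT PBS and 34.9 and 36.6 FPKM in WT NMDA, where *Fosl1* went from 1.93% to 2.98% of the sum to 37.8% to 41.4%. In sh*Pax6* the sum went from 22.7 to 24.4 FPKM up to 99.3 to 111 FPKM, of which *Fos* was 76.3% to 78.6% and *Fosl1* 12.3% to 12.8%. In JNK3 KO the sum was 27.7 to 30.9 FPKM with PBS and 32.7 to 35.8 with NMDA, with *Fosl1* at 22.3% to 23.3% of the latter. The 3 JUN genes summed to 110 to 116 FPKM in WT PBS and 237 to 280 in WT NMDA, and *Junb* held 41.6% to 43.9% of the first and 59.6% to 61.7% of the second. *Jun* was 20.0% to 20.1% of the JUN sum with PBS and 8.31% to 9.23% with NMDA in WT, while its own level lay between 21.8 and 23.3 FPKM. In sh*Pax6* the sum of the JUN genes went from 90.1 to 100 FPKM up to 203 to 209 FPKM, with *Jun* at 22.2% to 22.4% before and 24.2% to 27.7% after. In JNK3 KO it was 118 to 124 FPKM with PBS and 123 to 129 with NMDA. Shares and sums were not tested. The sums are on the deposited FPKM and were not rescaled. Over all genes the WT NMDA libraries totalled 805627 and 820180 FPKM, against 541210 to 576922 elsewhere. The sums of WT NMDA therefore cannot be ranked against those of other groups or read as a rise. Rescaling all genes of a library alike leaves its shares unchanged, but a trend on gene length does not. In WT the length correction moved the log2 response of *Jun* from -0.0023 to 0.49 and that of *Junb* from 1.69 to 1.42. That of *Fosl2* moved from -1.02 to 0.29. Shares were not corrected for length, so the part of this trend in the WT NMDA shares was not tested. On the deposited FPKM, FOS sums in WT NMDA were made mostly of *Fos* and *Fosl1*, and those in sh*Pax6* NMDA of *Fos*.

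**Figure D3:**
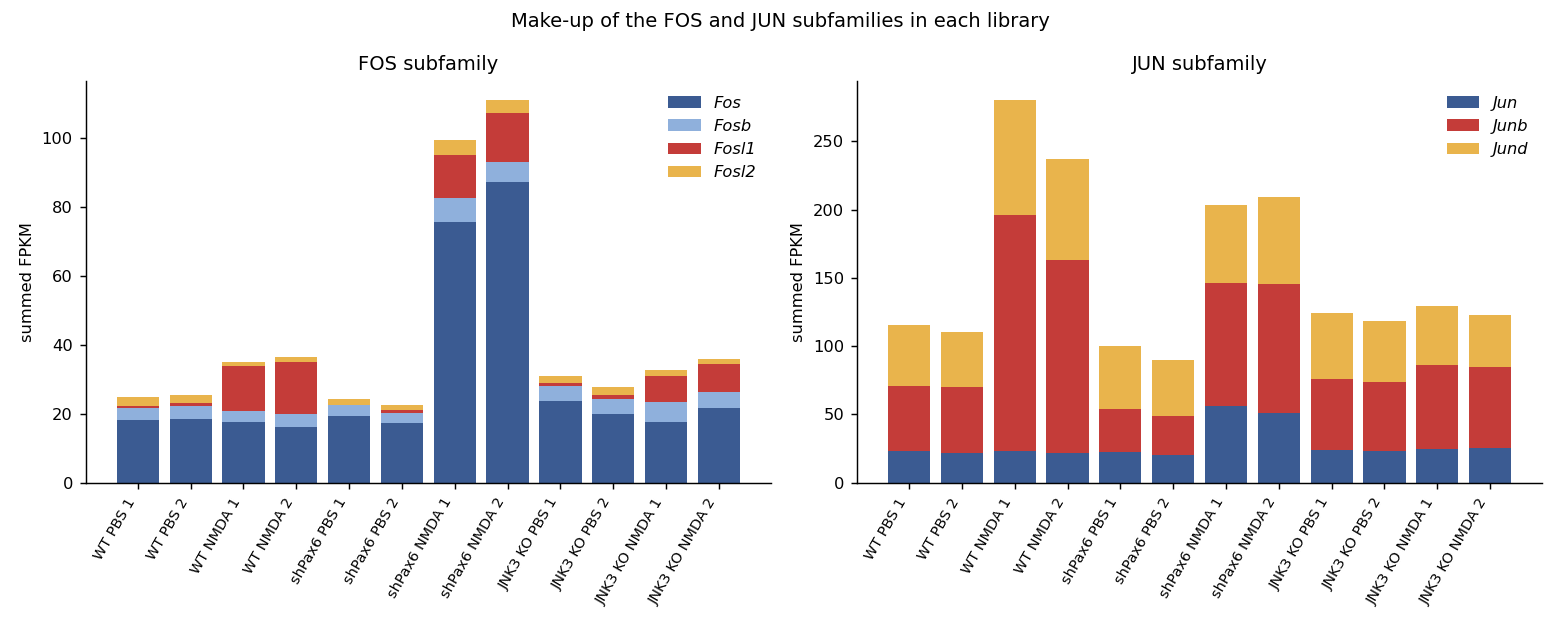
Summed FPKM (vertical axis, linear, from 0) of the 4 FOS genes and of the 3 JUN genes in each of the 12 libraries; each bar is a library and each colour a gene. On the deposited FPKM the highest FOS sums are those of the sh*Pax6* NMDA libraries, at 99.3 and 111 FPKM. The highest JUN sums on that scale are those of the WT NMDA libraries, at 237 and 280 FPKM. The sums were not rescaled, and the WT NMDA libraries had larger FPKM totals over all genes.

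Whether the responses differed between genotypes was tested on the difference itself. Each pair of genotypes has its own PBS and NMDA libraries, but each genotype enters 2 of the 3 differences, so these share libraries. Between WT and sh*Pax6* retinas 6 members differed, where 49.7% of all tested genes did, and the median of the members was -0.86 against -0.28 for all genes. The response was lower in WT for 5 members, with a difference (WT minus sh*Pax6*) of -2.25 for *Fos* (interval -2.67 to -1.84, limma adjusted p = 1.93e-05), -2.23 for *Fosl2* (-3.00 to -1.46, limma adjusted p = 0.000641), -1.33 for *Jun* (-1.61 to -1.06, limma adjusted p = 3.56e-05), -1.19 for *Fosb* (-1.76 to -0.62, limma adjusted p = 0.00401) and -1.17 for *Maff* (-1.91 to -0.42, limma adjusted p = 0.0161). After the length correction the differences were -2.24 for *Fos*, -1.0 for *Fosl2*, -0.74 for *Jun*, -1.18 for *Maff* and -0.53 for *Fosb*, of which only that of *Fosb* no longer passed (limma adjusted p = 0.14). After quantile normalization *Fosb* was at -0.56 (limma adjusted p = 0.105) and *Maff* at -0.46 (limma adjusted p = 0.295), so neither passed, while *Fos*, *Fosl2* and *Jun* did. Relative to the median of all genes they were -1.97, -1.95, -1.05, -0.88 and -0.91 for *Fos*, *Fosl2*, *Jun*, *Maff* and *Fosb*. For *Fosl2* the difference joined a fall in WT, which the length correction turned, with a rise in sh*Pax6*.

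*Jund* was the 1 member with a higher response in WT than in sh*Pax6*, by 0.44 (0.09 to 0.79, limma adjusted p = 0.0403), but this was -0.09 on TPM (limma adjusted p = 0.671), 0.10 after quantile normalization (limma adjusted p = 0.611) and 0.27 after the length correction (limma adjusted p = 0.187). Relative to the median of all genes it was 0.72 on FPKM and 0.71 on TPM. The call was also lost without WT NMDA replicate 1 (0.34), WT PBS replicate 2 (0.36), sh*Pax6* NMDA replicate 1 (0.36), sh*Pax6* PBS replicate 1 (0.35) or either JNK3 KO PBS library (0.44). *Junb* and *Atf3* had intervals of -0.20 to 0.38 and -0.42 to 0.30 around differences of 0.09 and -0.06. On TPM they were -0.43 for *Junb* and -0.58 for *Atf3* (limma adjusted p = 0.0215 and 0.0136), but relative to the TPM median of -0.80 they were at 0.36 and 0.22. After quantile normalization the difference of *Junb* was -0.46 (limma adjusted p = 0.0216), so no direction can be given for it. *Fosl1* had a difference of -0.55 with an interval of -2.15 to 1.05, too wide to place it. Without sh*Pax6* PBS replicate 2, in which *Fosl1* was the higher of the pair, it was -1.46 (limma adjusted p = 0.0218).

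Between WT and JNK3 KO retinas 4 members differed, where 51.4% of all tested genes did, all with a higher response in WT on the deposited FPKM. The share of all genes is that on the deposited FPKM. On TPM 7 differed, 3 with a higher response in WT and 4 with a lower one, and the median difference of all tested genes was -0.62. Those on the deposited FPKM were *Junb* by 1.45 (1.16 to 1.75, limma adjusted p = 1.98e-05), *Maff* by 1.39 (0.64 to 2.13, limma adjusted p = 0.00624), *Jund* by 1.11 (0.76 to 1.46, limma adjusted p = 0.000281) and *Atf3* by 1.08 (0.72 to 1.44, limma adjusted p = 0.000415). After the length correction they were 1.11, 1.13, 0.65 and 0.84 for *Junb*, *Maff*, *Jund* and *Atf3*, each with a limma adjusted p between 0.000189 and 0.0245. On TPM the difference of *Maff* was 0.83 (limma adjusted p = 0.0652). *Fosb* and *Fosl2* had differences of -0.36 and -0.67 that did not pass the test (limma adjusted p = 0.268 and 0.129). On TPM they were -0.95 and -1.25 (limma adjusted p = 0.0115 and 0.013), or -0.33 and -0.64 relative to the median, and after the length correction 0.26 and 0.84 (limma adjusted p = 0.474 and 0.0784), so no direction can be given for either. *Fosl1* had a difference of 1.59, with an interval of -0.01 to 3.19 and a limma adjusted p of 0.0893, which became 0.00692 and 0.00818 when replicate 1 or replicate 2 of sh*Pax6* PBS was left out, at the same 1.59, and it was 1.94 after quantile normalization (limma adjusted p = 0.0184). *Fos* and *Jun* had differences of 0.04 (-0.38 to 0.45) and -0.10 (-0.38 to 0.17). On TPM these were -0.55 and -0.69 (limma adjusted p = 0.0247 and 0.00112), or 0.06 and -0.08 relative to the median, and after the length correction *Jun* was at 0.42 (limma adjusted p = 0.0223), so no direction can be given for *Jun*.

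Between sh*Pax6* and JNK3 KO retinas 7 members differed, where 17.7% of all tested genes did, all with a higher response in sh*Pax6*. The median of the members was 1.46 against 0.10 for all genes, and this pair does not include the WT NMDA libraries. The differences were 2.55 for *Maff* (1.81 to 3.30, limma adjusted p = 0.00112), 2.29 for *Fos* (1.88 to 2.71, limma adjusted p = 7.93e-05), 1.55 for *Fosl2* (0.78 to 2.32, limma adjusted p = 0.0145), 1.36 for *Junb* (1.07 to 1.66, limma adjusted p = 0.000214), 1.23 for *Jun* (0.95 to 1.51, limma adjusted p = 0.000269), 1.13 for *Atf3* (0.77 to 1.49, limma adjusted p = 0.00175) and 0.67 for *Jund* (0.32 to 1.02, limma adjusted p = 0.0176). After the length correction that of *Jund* was 0.38 (limma adjusted p = 0.134). Leaving out 1 library also ended its call, at 0.58 without JNK3 KO NMDA replicate 2, 0.61 without JNK3 KO PBS replicate 1, 0.59 without sh*Pax6* NMDA replicate 2 and 0.58 without replicate 2 of sh*Pax6* PBS. That of *Fosl2* was lost at 1.51 without JNK3 KO NMDA replicate 2 (limma adjusted p = 0.0567). *Fosb* at 0.83 and *Fosl1* at 2.14 missed the threshold (limma adjusted p = 0.0532 and 0.0676). *Fosb* passed at 0.83 without either WT NMDA library and at 0.94 without sh*Pax6* NMDA replicate 2, and *Fosl1* at 3.05 without sh*Pax6* PBS replicate 2.

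**Figure D4:**
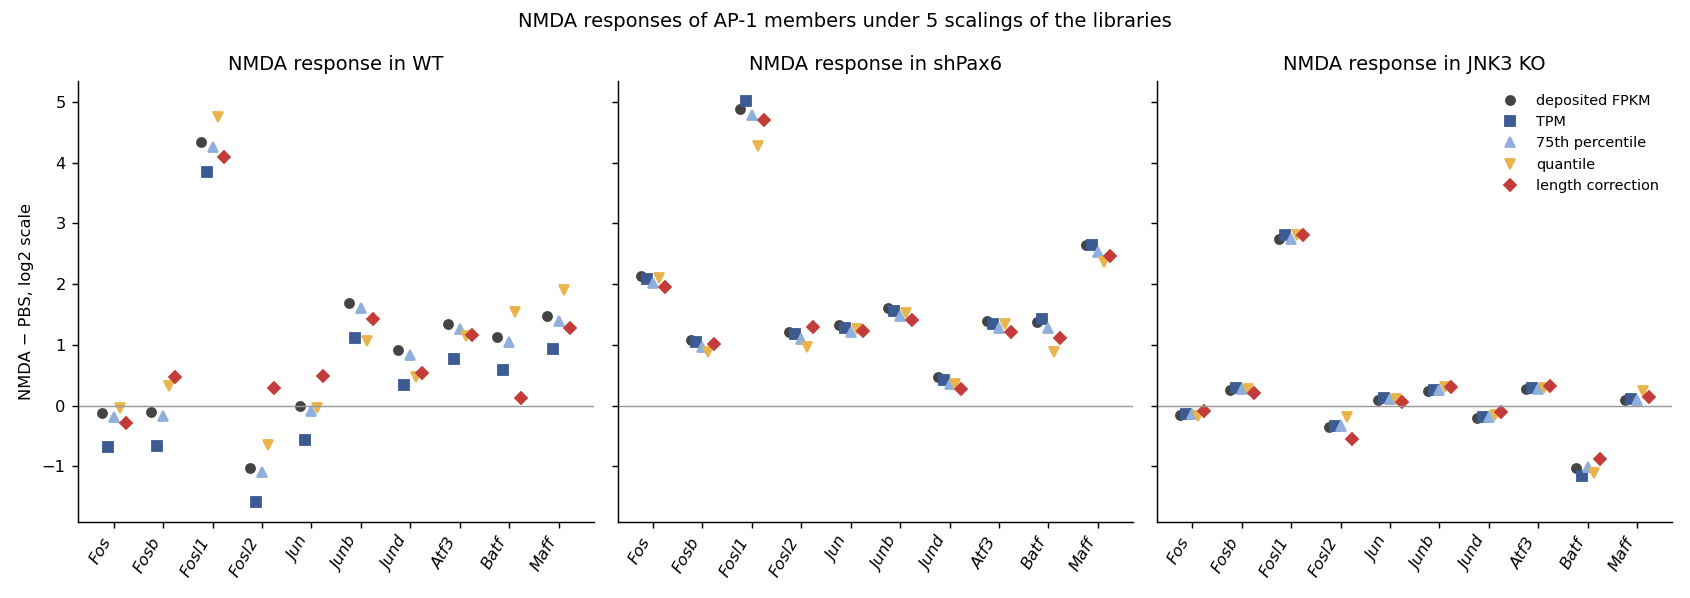
Log2 response to NMDA (vertical axis) of each AP-1 member in the 3 genotypes under 5 scalings, each marker a scaling: deposited FPKM, TPM, a common 75th percentile, quantile normalization and the length correction. In WT *Jun* runs from -0.57 to 0.49 and *Fosl2* from -1.59 to 0.29, across 0, and in sh*Pax6* *Fosl1* runs from 4.28 to 5.01.

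Levels in PBS-injected eyes were also compared with WT. In sh*Pax6* against WT under PBS 1 of 10 differed, where 16.5% of all tested genes did. This was *Junb*, lower in sh*Pax6* with a log2 difference of -0.67 (interval -0.88 to -0.46, limma adjusted p = 0.00143), and *Fos* was at 0.01 (-0.28 to 0.30). *Fosl1* was at -0.65, and at -1.56 without sh*Pax6* PBS replicate 2 (limma adjusted p = 0.0168). In JNK3 KO against WT under PBS 1 of 10 differed, where 1.51% of all tested genes did. *Atf3* was higher by 0.68 in JNK3 KO (0.42 to 0.93, limma adjusted p = 0.0263). That call was lost after the length correction at 0.62 (limma adjusted p = 0.0506) and on leaving out any 1 of 6 libraries, at 0.78 and 0.57 without WT PBS replicate 1 or 2, 0.69 and 0.66 without JNK3 KO PBS replicate 1 or 2, and 0.68 without either JNK3 KO NMDA library.

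Other genes of the pathway were counted in 4 lists, on the deposited FPKM alone. The WT response followed gene length, with a median of 1.03 for genes under 1 kb and -1.17 for those over 4 kb. List values that include WT were neither rescaled nor corrected for length, and the part of that trend in them was not tested. Over all tested genes 26.0% rose and 33.8% fell in WT, 19.1% and 11.0% in sh*Pax6*, and 4.33% and 6.10% in JNK3 KO. Of 28 further basic leucine zipper partners (ATF, CREB, C/EBP, MAF, NFE2L and BACH genes) 27 were tested. In WT 11 rose and 10 fell, in sh*Pax6* 10 rose and 2 fell, and in JNK3 KO 1 rose and 1 fell, with medians of 0.15, 0.26 and 0.00268. All 27 upstream regulators (JNK, ERK and p38 kinases, their activators, and serum response and MEF2 factors) were tested. In WT 6 rose and 16 fell with a median of -0.76, in sh*Pax6* 7 rose and 3 fell with a median of 0.07, and in JNK3 KO 3 rose and 0 fell with a median of 0.08. Of 16 feedback genes (DUSP phosphatases, Sprouty genes, mRNA decay and ubiquitin ligase factors), all tested, 4 rose and 4 fell in WT, 9 rose and 1 fell in sh*Pax6*, and 2 rose and 0 fell in JNK3 KO. Their medians were -0.15, 0.53 and 0.21. Of 25 textbook AP-1 targets (matrix proteases, *Timp1*, *Hmox1* and others) 21 were tested. In WT 12 rose and 2 fell with a median of 1.40, in sh*Pax6* 17 rose and 0 fell with a median of 2.34, and in JNK3 KO 4 rose and 3 fell with a median of -0.11. The response of the targets was higher in WT than in sh*Pax6* for 2 and lower for 9, and higher in WT than in JNK3 KO for 11 and lower for 3, where 49.7% and 51.4% of all tested genes differed in either direction. It was higher in sh*Pax6* than in JNK3 KO for 15 and lower for 0, with a median difference of 2.46 against 0.10 for all genes, of which 17.7% differed. Under PBS 8 of the 21 targets were lower and 0 higher in sh*Pax6* than in WT, where 16.5% of all tested genes differed in either direction. Many of these targets are also made by leukocytes and reactive glia, whose markers moved with the groups as given above.

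Across the 12 libraries, *Fos* and *Jun* had the most similar pattern of any 2 members (Pearson's r = 0.98 of log2 values), followed by *Fosl1* and *Atf3* (0.90), *Atf3* and *Maff* (0.87) and *Junb* and *Jund* (0.87). *Fosl2* ran least with *Jund* (-0.13) and *Junb* (-0.11). Among all other protein-coding genes tested, the 3 most like *Fos* were *Gm21818*, *Prg2* and *Ctsb* (r from 0.971 to 0.973), and the same 3 were most like *Jun* (0.982 to 0.985). *Maff* was closest to *Lgmn*, *Lamp1* and *Ctsd* (0.972 to 0.979), *Fosl2* to *Samd9l*, *Htra3* and *Il18bp* (0.934 to 0.947), and *Fosb* to *Tspan14*, *Fbln1* and *Dab2* (0.927 to 0.952). *Fosl1* was closest to *Aebp1*, *Gpx8* and *Eif2s2* (0.972 to 0.973), *Atf3* to *Sdf2l1*, *Cited1* and *U2af2* (0.954 to 0.978) and *Batf* to *Ydjc*, *Nectin2* and *C130050O18Rik* (0.841 to 0.880). The 12 points come from 6 groups of 2 and share the offset of the WT NMDA libraries, so these coefficients are a description only.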

How the data were processed

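Retinal poly(A) RNA of 12 libraries was sequenced as paired ends of 101 bases. According to the submitters' processing notes, the authors used STAR 2.7.1a, RSEM 1.3.3, edgeR 3.36.0 and R 4.1.0 with build GRCm38.p6, and FPKM of genes and of transcripts in each library were deposited. FPKM hold no counts, so the depth behind a value is unknown and no counting interval is given. No column of another sample was present. A count test could not be used. The deposited FPKM were transformed to log2(FPKM + 0.1), genes whose mean passed 1 FPKM in any group were kept, and 1 model of 6 group means was fitted to 12 libraries (6 residual degrees of freedom) with limma 3.58.1 in R 4.3.3 (lmFit, then eBayes with an intensity trend). Adjusted p are Benjamini-Hochberg over the 16471 genes, and intervals are at 95%. Gene lengths came from GENCODE M21, which matched 99.53% of genes, as means of transcript length weighted by FPKM. The libraries' labels do not say that they came from separate animals, so p-values measure the spread between libraries, which may be technical.

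Named genes were all 10 members, the 3 protein-coding genes most correlated with each (not reported here for *Junb* and *Jund*), and *Pax6* and *Mapk10* as a check. Other genes named were examples of a list or of markers at 0. The members, the 4 pathway lists and the marker lists were chosen with earlier results of these data known. Alternatives were 12 settings and 12 libraries left out in turn. Promoters came from RefSeq. Python 3.11.15 and matplotlib 3.10.9 drew the figures.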

Additional observations from a re-analysis of the deposited data

Results flagged for a closer look

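For 17 pairs of a member and a difference between responses, the NMDA response differed between genotypes by limma's test of the difference (Benjamini-Hochberg adjusted p under 0.05). Of all tested genes 49.7% differed between WT and sh*Pax6*, 51.4% between WT and JNK3 KO and 17.7% between sh*Pax6* and JNK3 KO. Between WT and sh*Pax6* the log2 differences were -2.25 for *Fos*, -1.19 for *Fosb*, -2.23 for *Fosl2*, -1.33 for *Jun* and -1.17 for *Maff*, all lower in WT, and 0.438 for *Jund*, higher in WT on the deposited FPKM and -0.085 on TPM, or 0.72 and 0.71 relative to the median of all genes. Between WT and JNK3 KO they were 1.45 for *Junb*, 1.11 for *Jund*, 1.08 for *Atf3* and 1.39 for *Maff*, all higher in WT. Between sh*Pax6* and JNK3 KO they were 2.29 for *Fos*, 1.55 for *Fosl2*, 1.23 for *Jun*, 1.36 for *Junb*, 0.67 for *Jund*, 1.13 for *Atf3* and 2.55 for *Maff*, all higher in sh*Pax6*. Some of these calls were lost under other scalings. After quantile normalization, *Fosb* and *Maff* did not pass between WT and sh*Pax6* (limma adjusted p = 0.105 and 0.295). On TPM *Maff* did not pass between WT and JNK3 KO (limma adjusted p = 0.0652). After the length correction, *Fosb* between WT and sh*Pax6* and *Jund* between sh*Pax6* and JNK3 KO did not pass (limma adjusted p = 0.14 and 0.134). With 2 libraries per group no group was tested for a single outlying library.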

How the results depend on the processing

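One limit is the WT NMDA pair, whose response followed gene length, so WT values of long and short members depended on the scaling. The cause was not tested. Among values called on either side, those turned by a setting were the WT response of *Fosl2* (0.29, length correction) and *Jun* (0.49, length correction), the difference of WT from sh*Pax6* for *Junb* (-0.43 on TPM, -0.46 with quantile normalization) and *Jund* (-0.085 on TPM, 0.71 relative to the median), and the difference of WT from JNK3 KO for *Fos* (-0.55 on TPM, 0.06 relative to the median) and *Jun* (0.42, length correction). The count of members called was 9 in WT on TPM (6 as reported), 7 on TPM and 4 with quantile normalization or the length correction for WT against sh*Pax6* (6 as reported), 5 in sh*Pax6* with the spread of the groups compared alone, 7 for WT against JNK3 KO on TPM, 0 for sh*Pax6* against WT under PBS with an unadjusted p under 0.05 and a log2 limit of 1, and 0 for JNK3 KO against WT under PBS in each of 4 settings (that limit, the spread of the groups compared, no intensity trend, length correction). With 1 library left out at a time, counts ran from 6 to 6 (WT), 8 to 9 (sh*Pax6*) and 0 to 2 (JNK3 KO) for responses, from 5 to 7 (WT minus sh*Pax6*), 4 to 5 (WT minus JNK3 KO) and 5 to 8 (sh*Pax6* minus JNK3 KO) for differences, and from 1 to 2 and 0 to 1 under PBS for sh*Pax6* and JNK3 KO; a group left with 1 library was assumed to vary like the others. Same-numbered libraries did not deviate together over all tested genes (correlations of -0.10 to 0.09 over 15 pairs of groups). This cannot show whether they shared an animal, a day or a batch that acted on few genes. With the replicate number as a block the counts were 6, 9 and 1 for responses, 6, 5 and 8 for differences and 1 and 1 under PBS. Shares of all tested genes are given for the main setting alone, so the counts under other settings have none beside them. Of 1920 member values under all settings, 1800 kept direction and side of the threshold, 46 lost and 31 gained a call in the same direction, 36 changed sign with no call on either side, and 7 are those turned above.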
